A study of Mus musculus with 2 samples.

Results

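Genes for enzymes that conjugate foreign and endogenous compounds or reduce their carbonyl groups were compared between immortalised mouse embryonic fibroblasts lacking p65, the Rela-encoded subunit of NF-kB (p65-/-, here p65-null), and fibroblasts with intact p65 (p65+/+, here wild-type), both of strain C57BL/6. The genes were chosen by name: glutathione S-transferases of a lettered class (Gst), UDP-glucuronosyltransferases (Ugt), sulfotransferases (Sult), aldo-keto reductases of families Akr1 and Akr7, epoxide hydrolases (Ephx), carbonyl reductases (Cbr) and quinone reductases (Nqo). They made up 53 of the 16881 transcripts in the table, and the 35 whose mean level in the 2 libraries reached 1 CPM are called measured. CPM is the usual count of fragments scaled to a fixed library size, and it is not divided by transcript length. Total RNA was sequenced in 1 library per genotype. Fragments recovered from the deposited scaled values summed to 15441394 for p65-null and 20794476 for wild-type over all transcripts. These sums are not the sequenced depth, and a fragment in overlapping transcripts can be counted more than once. No difference has a replicate check, no p-value is given, and the absence of p65 cannot be told apart from any other difference between the 2 cultures. The labels give no stimulus, passage, method of immortalisation or clone for either culture.

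These enzymes make reactive and foreign compounds easier to dispose of. Glutathione transferases couple electrophiles to glutathione, UDP-glucuronosyltransferases attach glucuronic acid and sulfotransferases attach sulfate, and the products are then exported from the cell by membrane pumps. Epoxide hydrolases add water to reactive epoxides, while aldo-keto, carbonyl and quinone reductases turn aldehydes, ketones and quinones into less reactive alcohols and hydroquinones. Several of the genes are textbook targets of the transcription factors NRF2, which answers oxidants and electrophiles, and AhR, which answers aromatic ligands. They are best known from liver, and fibroblasts express a smaller set.

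Rela, which encodes p65, had 13.1 normalised CPM in the p65-null library and 90.5 in the wild-type library, 6.90-fold lower in p65-null (95% interval 5.96 to 8.03). Intervals are Clopper-Pearson intervals that cover counting error in these 2 libraries only, and CPM values were scaled with TMM factors (trimmed mean of M values). All 10 fibroblast markers looked up were measured, with summed levels of 24752 CPM in p65-null and 12114 CPM in wild-type. Collagen genes made up most of that sum, and the markers did not move together: S100a4 was at 1508 CPM in p65-null and 121 CPM in wild-type, 12.5-fold higher, Thy1 was 8.60-fold lower (7.26 to 10.3) and Dcn 1.61-fold lower (1.49 to 1.74). Of the epithelial markers 0 of the 6 found were measured, with sums of 2.81 CPM in p65-null and 0.118 CPM in wild-type, led by Krt18 with 23 fragments in p65-null and 0 in wild-type and Cdh1 with 11 in p65-null and 0 in wild-type. The 2 hepatocyte markers found, Ttr and Apoa1, summed to 0.264 CPM in p65-null and 0.189 CPM in wild-type, with 0 measured. Of 5 endothelial markers 1 was measured, with sums of 2.24 CPM in p65-null and 3.40 CPM in wild-type. Of 4 macrophage and blood markers 3 were measured, with sums of 9.51 CPM in p65-null and 20.6 CPM in wild-type, where Cd14 was 3.88-fold lower in p65-null (2.98 to 5.12) and Cd68 2.97-fold higher (1.88 to 4.79), and Ptprc, the pan-leukocyte marker, had 0 fragments in p65-null and 2 in wild-type. The part of these other markers in the results was not tested, and in bulk RNA fewer cells of a type and less RNA per cell cannot be told apart.

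Most of the measured conjugating enzyme genes were higher in the p65-null library. Before correction for GC content and length, 2 of the 14 measured reductase genes were higher by 2-fold or more. That share was near that of all measured genes, given next. Of the 35 measured transcripts, 18 were at least 2-fold higher in p65-null, a share to be read against 12.2% of all 12102 measured genes, and 2 were at least 2-fold lower, against 13.7%. At least 4-fold differences were found for 14 higher transcripts, against 4.38% of all measured genes, and 2 lower ones, against 3.47%. The median log2 ratio of p65-null over wild-type was 1.51 over the 35 transcripts and -0.03 over all measured genes. Of the 18 higher transcripts, 8 are the Ugt1a transcripts, which share most of their exons. With Ugt1a taken as 1 locus, 11 of 28 were at least 2-fold higher and the median was 0.65. Of the 14 transcripts at least 4-fold higher, 7 are Ugt1a transcripts, and 7 of the 27 other measured members passed 4-fold. The whole counting interval lay beyond 2-fold for all 18 higher and both lower transcripts, against 7.97% of all measured genes for higher and 9.08% for lower. Without Ugt1a it did so for 10 of 27 on the higher side. Of the 2 lower transcripts, Akr1c13 (0.132 CPM in p65-null, 3.16 CPM in wild-type) reached the mean of 1 CPM only through wild-type. Its place in these counts is therefore no separate support for a lower level. Across all measured genes the log2 ratio followed transcript GC content (Spearman 0.43 across 12059 genes, which are not independent replicates). The measured members had a median GC content of 50.5%, as did all measured genes. That median includes the 8 Ugt1a transcripts, with a median of 46.7%. The 27 measured members other than Ugt1a had a median of 52.3%, above that of all measured genes. Once ratios were corrected for GC content and length, 21 of the 35 were at least 2-fold higher, against 11.2% of all genes, and 4 at least 2-fold lower, against 9.27%. Of the 27 other than Ugt1a, 13 were then higher and 4 lower. Of the 14 reductase genes, 5 were then higher and 3 lower, so their share of higher genes was no longer near that of all genes.

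**Figure D1:**
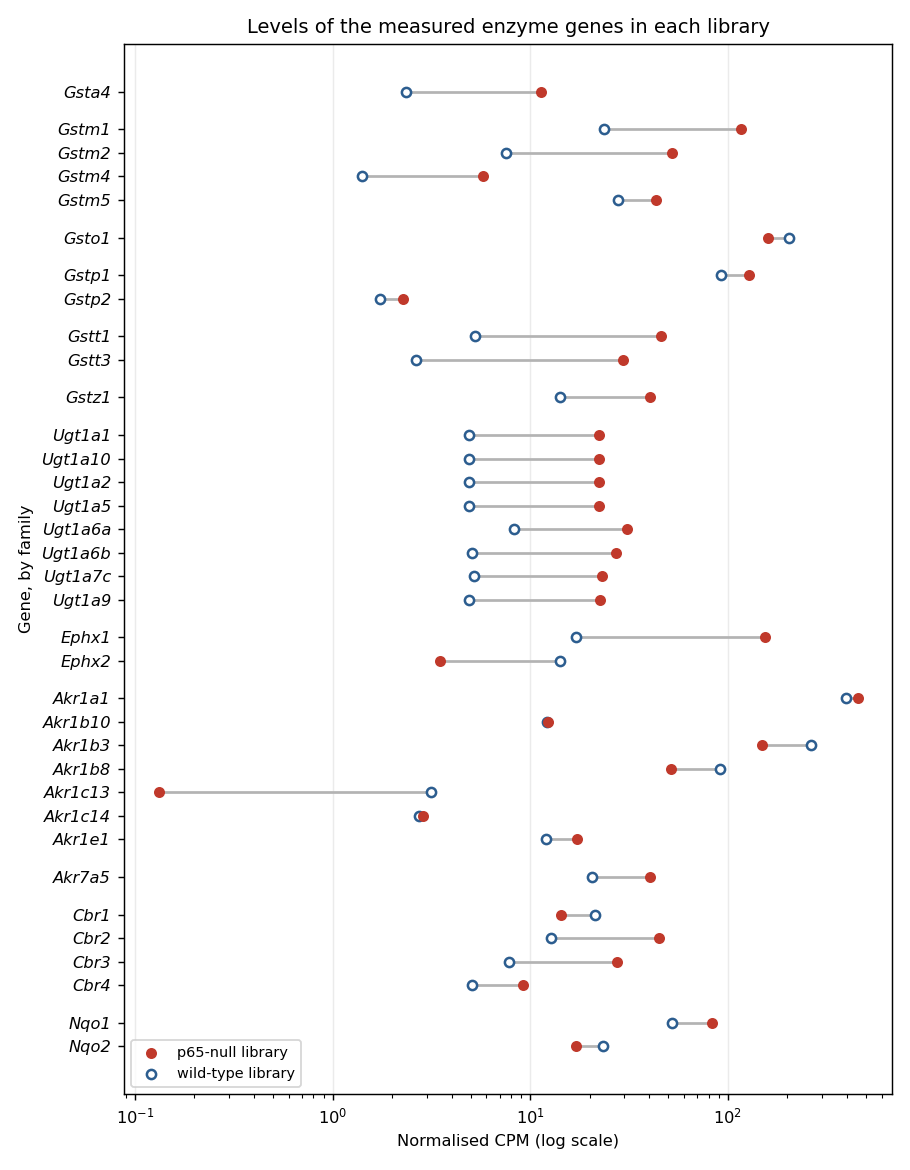
Normalised CPM (log axis) of each of the 35 measured transcripts, 1 row per transcript, with filled points for the p65-null and open points for the wild-type library. The Gsta, Gstm, Gstt, Gstz and Ugt1a rows and Ephx1 are among those with the p65-null point on the right. It is on the left for Ephx2, Akr1b3, Akr1b8, Akr1c13, Gsto1, Cbr1 and Nqo2.

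Promoter windows from RefSeq (GRCm38.p6, 250 bases before to 50 after an annotated start) were available for 31 of the 35 measured members. They were searched on both strands for the core of the antioxidant response element bound by NRF2 (TGACNNNGC), the core of the xenobiotic response element bound by AhR (GCGTG), and the kappaB motif bound by NF-kB. The antioxidant core was found for 1 of the 31 genes, Gstm5, and for 3781 of all 27025 genes with a window. The xenobiotic core was found for 9 of the 31 (Akr1b8, Akr1c14, Akr7a5, Cbr1, Gstm1, Gstm5, Gstp1, Nqo2 and Ugt1a5) and for 35.2% of those genes, and the kappaB motif for 1 of the 31, Akr1c13, and for 5.14% of them. A match is a description of the letters and not a bound site, and the windows leave out distant elements. The 7 windows below belong to the member with the lowest ratio, to 2 mu-class genes with a match and 1 without, and to 3 other members that were higher. Capitals mark a motif match and are counted from the first base of the window.
Akr1c13 promoter, chr13:4190937-4191236, plus strand: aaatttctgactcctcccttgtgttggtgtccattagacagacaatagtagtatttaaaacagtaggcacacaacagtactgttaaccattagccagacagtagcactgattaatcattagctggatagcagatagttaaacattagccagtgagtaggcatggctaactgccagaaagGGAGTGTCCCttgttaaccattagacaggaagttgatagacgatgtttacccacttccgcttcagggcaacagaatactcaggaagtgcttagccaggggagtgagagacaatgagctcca
Gstm5 promoter, chr3:107895604-107895903, plus strand: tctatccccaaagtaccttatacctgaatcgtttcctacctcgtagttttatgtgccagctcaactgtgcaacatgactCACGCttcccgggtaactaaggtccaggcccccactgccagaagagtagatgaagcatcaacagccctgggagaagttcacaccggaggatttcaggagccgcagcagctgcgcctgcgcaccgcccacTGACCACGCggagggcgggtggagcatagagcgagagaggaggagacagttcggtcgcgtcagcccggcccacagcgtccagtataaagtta
Gstm1 promoter, chr3:108017924-108018223, minus strand: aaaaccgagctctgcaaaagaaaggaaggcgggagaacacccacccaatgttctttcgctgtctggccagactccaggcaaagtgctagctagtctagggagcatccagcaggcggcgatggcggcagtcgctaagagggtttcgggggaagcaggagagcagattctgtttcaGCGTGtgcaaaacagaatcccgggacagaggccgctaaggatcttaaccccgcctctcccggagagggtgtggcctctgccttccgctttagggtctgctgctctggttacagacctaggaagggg
Gstm2 promoter, chr3:107986371-107986670, minus strand: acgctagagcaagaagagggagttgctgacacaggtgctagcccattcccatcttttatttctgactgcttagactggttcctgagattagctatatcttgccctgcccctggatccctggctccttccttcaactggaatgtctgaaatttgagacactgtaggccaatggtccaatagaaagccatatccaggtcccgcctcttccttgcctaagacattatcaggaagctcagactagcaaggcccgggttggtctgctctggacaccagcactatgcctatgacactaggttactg
Gstt3 promoter, chr10:75781373-75781672, minus strand: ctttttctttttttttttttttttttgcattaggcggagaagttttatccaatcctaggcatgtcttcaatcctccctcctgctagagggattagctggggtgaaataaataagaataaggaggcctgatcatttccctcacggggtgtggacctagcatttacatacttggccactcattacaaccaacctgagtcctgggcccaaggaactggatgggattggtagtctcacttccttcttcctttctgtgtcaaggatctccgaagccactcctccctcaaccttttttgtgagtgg
Ephx1 promoter, chr1:181017520-181017819, minus strand: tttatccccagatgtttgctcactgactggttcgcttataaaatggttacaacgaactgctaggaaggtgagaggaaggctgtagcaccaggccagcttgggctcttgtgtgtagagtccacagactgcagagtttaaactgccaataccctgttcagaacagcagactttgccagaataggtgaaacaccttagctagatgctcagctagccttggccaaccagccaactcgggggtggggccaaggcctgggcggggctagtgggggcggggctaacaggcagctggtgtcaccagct
Ugt1a6a promoter, chr1:88134559-88134858, plus strand: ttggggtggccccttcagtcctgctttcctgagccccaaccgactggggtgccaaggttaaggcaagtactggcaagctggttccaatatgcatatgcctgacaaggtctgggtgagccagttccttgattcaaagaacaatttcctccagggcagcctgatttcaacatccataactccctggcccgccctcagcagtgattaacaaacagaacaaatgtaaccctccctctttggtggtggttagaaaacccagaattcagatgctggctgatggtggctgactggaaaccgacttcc
In the Akr1c13 window the kappaB match starts at base 180. In the Gstm5 window the antioxidant core starts at base 209 and overlaps a match to the xenobiotic core on the other strand, and a further xenobiotic match starts at base 80. The Gstm1 window holds the xenobiotic core at base 175. The windows of Gstm2, Gstt3, Ephx1 and Ugt1a6a held none of the 3 motifs.

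Cytosolic glutathione transferases were the largest group, and 7 of their 11 measured genes were at least 2-fold higher in p65-null, with 0 at least 2-fold lower, against 12.2% and 13.7% of all measured genes. Their median log2 ratio was 2.02, or 1.71 once corrected for GC and length. The theta class, which acts on small halogenated compounds, stood farthest apart. Gstt3 (NM_133994) was at 29.4 CPM in p65-null and 2.64 CPM in wild-type, 11.1-fold higher (8.41 to 15.0). Gstt1 was at 46.1 CPM in p65-null and 5.26 CPM in wild-type, 8.76-fold higher (7.16 to 10.8). Both genes lie within 75774117 to 75822566 on chromosome 10 with Gstt4, which had 1.5 fragments in p65-null and 2 in wild-type. Ddt, the D-dopachrome tautomerase gene, starts 743 bases away on one side and was 2.85-fold higher (2.38 to 3.42), while Mif, its relative 36787 bases away on the other side, had a log2 ratio of -0.22. Gm20441, annotated over Gstt3 on the same strand, shares 476 of the 1831 stretches of 50 bases (words) in the Gstt3 transcript, so that the Gstt3 count may include it.

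The mu class lies in 1 cluster on chromosome 3 (107895854 to 108045179 in GRCm38), and its 4 measured genes did not differ by the same amount. Gstm2 (NM_008183, 107981702 to 107986420) was at 52.3 CPM in p65-null and 7.52 CPM in wild-type, 6.95-fold higher (5.86 to 8.29). Gstm1, the mu gene with most fragments in p65-null, was at 117 CPM against 23.6 CPM in wild-type, 4.97-fold higher (4.50 to 5.50). Gstm4 was at 5.74 CPM in p65-null and 1.42 CPM in wild-type, 4.06-fold higher (2.65 to 6.37). Gstm5, at the end of the cluster and printed above with its antioxidant core, was at 43.1 CPM in p65-null and 27.8 CPM in wild-type, a ratio of 1.55 (1.39 to 1.74) that stayed within 2-fold. The order of levels within the class was therefore not the same in the 2 libraries. Per length of transcript, Gstm1 stood at 91.0 and Gstm5 at 45.7 CPM per kilobase of transcript (FPKM) in p65-null, whereas Gstm1 stood at 18.3 and Gstm5 at 29.4 FPKM in wild-type. Gstm3, Gstm6 and Gstm7 were under the minimum, with at most 7 fragments in either library. Of the 50-base words of Gstm1, 23.1% also occur in other annotated transcripts, among them Gstm2-ps1 and Gstm3, against 9.36% for Gstm2 and 0 for Gstm4 and Gstm5. Gstm5 exons overlap 178 bases of 4933431E20Rik on the other strand, which was 1.44-fold higher (1.15 to 1.81). The nearest measured genes on each side of the cluster, Csf1 (135385 bases away) and Ampd2 (28880 bases away), had log2 ratios of -0.49 and 0.26.

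Gsta4 (NM_010357, chromosome 9, 78191966 to 78209349), the alpha-class enzyme that conjugates aldehydes from oxidised lipids, was at 11.3 CPM in p65-null and 2.36 CPM in wild-type, 4.80-fold higher (3.48 to 6.72). It was the measured gene of its class, since Gsta3 had 1 fragment in p65-null and 0 in wild-type. Gstz1, the zeta-class isomerase of tyrosine breakdown, was at 40.2 CPM in p65-null and 14.2 CPM in wild-type, 2.84-fold higher (2.47 to 3.28). Its exons overlap 338 bases of Pomt2 on the other strand, and Pomt2 was itself 2.05-fold higher (1.83 to 2.30). Since the sources used here do not state a strand setting for counting, reads in that stretch cannot be assigned to either gene.

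The 2 glutathione transferases with the highest levels per length in each library, Gstp1 and Gsto1, stayed within 2-fold. Gstp1, the pi-class enzyme common in cultured cells, was at 128 CPM in p65-null and 92.9 CPM in wild-type, a ratio of 1.38 (1.29 to 1.47), with a log2 ratio of 0.46 that was 0.02 after the GC and length correction. Gstp2, its neighbour, was at 2.28 CPM in p65-null and 1.75 CPM in wild-type, a ratio of 1.30 with an interval that includes 1 (0.796 to 2.13). These 2 genes are near copies: 62.3% of the 50-base words of Gstp1 and 72.6% of those of Gstp2 occur in another annotated transcript, so that their split is uncertain. Gsto1, an omega-class enzyme that reduces dehydroascorbate, was at 159 CPM in p65-null and 204 CPM in wild-type, 1.29-fold lower (1.22 to 1.35), and it was the measured glutathione transferase with a ratio below 1. Gsto2 had 10 fragments in p65-null and 11 in wild-type. The organelle enzyme gene Gstk1 was also under the minimum, with 7 fragments in p65-null and 0.5 in wild-type, where a fragment of which 1 mate was counted is 0.5. Summed over the 11 measured genes, the glutathione transferases took 634 CPM in p65-null and 384 CPM in wild-type, a ratio of 1.65.

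All 8 listed Ugt1a transcripts were higher in p65-null, with ratios from 3.71 for Ugt1a6a (3.12 to 4.44) to 5.39 for Ugt1a6b (4.35 to 6.73). They are products of 1 locus on chromosome 1 (88055411 to 88220002) in which each transcript starts with exons of its own and then joins 4 exons that all 8 share in the GENCODE annotation. The 8 values are not 8 measurements, since fragments in shared exons stand in several of them. Gm20528, annotated on the other strand, overlaps at least 394 exonic bases of each Ugt1a transcript and 922 of Ugt1a1. Because no strand setting is stated, the Ugt1a counts may include reads of Gm20528. Ugt1a1, Ugt1a2, Ugt1a5 and Ugt1a10 held exactly the same counts, 339 fragments (22.4 CPM) in p65-null and 103.5 fragments (4.88 CPM) in wild-type, a ratio of 4.58 (3.67 to 5.77). These were the lowest values of the locus, and what a transcript held above them lay outside the bases common to all 8. Ugt1a1 makes the bilirubin-conjugating enzyme of liver, and its own first exon added 0 fragments in either library.

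Fragments above the shared value were listed mainly for the Ugt1a6 transcripts, which make enzymes for small phenols. Ugt1a6a had 128 fragments above it in p65-null and 72.5 in wild-type, a ratio of 2.47 (1.84 to 3.34). Ugt1a6b had 75 above it in p65-null and 4 in wild-type, a ratio of 26.2 with a wide interval (9.83 to 98.8). By its RefSeq coordinates Ugt1a6b ends at 88218998, and the other Ugt1a genes end at 88220002. The subtracted value may therefore include fragments in a stretch that Ugt1a6b lacks. In that case 75 and 4 are too low, and the interval does not cover this uncertainty in the ratio. The own exons of these 2 transcripts are alike, with 54.5% of their 50-base words in common, so their split is uncertain. The annotation of Ugt1a7c also covers 2170 exonic bases of Ugt1a6a, so the fragments listed for Ugt1a6a may belong in part to Ugt1a7c. Ugt1a7c had 11 fragments above the shared value in p65-null and 6 in wild-type, a ratio of 2.57 with an interval that includes 1 (0.870 to 8.45). Ugt1a9 had 1.5 in p65-null and 0 in wild-type. The nearest measured genes on each side of the locus, Usp40 (46829 bases away) and Mroh2a (6989 bases away), had log2 ratios of 0.09 and 0.08. Outside the locus, Ugt8a, which makes galactosylceramide, had 0 fragments in p65-null and 1 in wild-type.

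**Figure D2:**
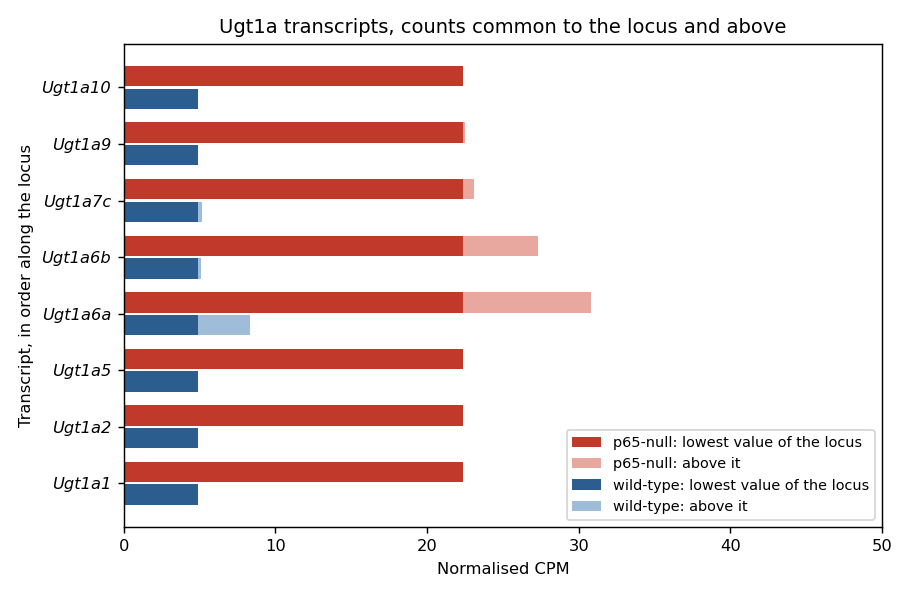
Normalised CPM of the 8 Ugt1a transcripts in order along the locus, with the p65-null bar above the wild-type bar for each. The dark part is the lowest value of the locus, 22.4 CPM in p65-null and 4.88 CPM in wild-type, and the pale part is what each transcript held above it, largest for Ugt1a6a and Ugt1a6b.

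Sulfotransferase genes were hardly detected. None of the 5 in the table was measured, and no library held more than 6 fragments of any of them. Sult6b1 had 6 fragments in p65-null and 4.5 in wild-type. Sult1a1, the phenol sulfotransferase, had 0.5 in p65-null and 5.5 in wild-type. Sult2b1, Sult4a1 and Sult6b2 had at most 3 fragments in either library, so no ratio is given for them. A count of 0 allows up to 3 fragments, or 0.198 CPM in p65-null and 0.142 CPM in wild-type.

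The 2 measured epoxide hydrolase genes lay on opposite sides. Ephx1 (NM_010145, chromosome 1, 180989556 to 181017569 in GRCm38), the microsomal enzyme that opens epoxides of foreign compounds, was at 155 CPM in p65-null and 17.1 CPM in wild-type, 9.08-fold higher (8.12 to 10.2). Ephx2 (NM_007940, chromosome 14, 66084372 to 66124522), the soluble enzyme that hydrolyses epoxides of fatty acids, was at 3.50 CPM in p65-null and 14.2 CPM in wild-type, 4.05-fold lower (3.01 to 5.52). Per length of transcript Ephx1 stood at 89.0 and Ephx2 at 1.72 FPKM in p65-null, whereas Ephx1 stood at 9.81 and Ephx2 at 6.95 FPKM in wild-type. Ephx3 and Ephx4 had 0 fragments each in p65-null and 2 each in wild-type. The nearest measured genes on each side of Ephx1, Tmem63a (14450 bases away) and Nvl (69569 bases away), had log2 ratios of 0.45 and -0.22. Of those beside Ephx2, Clu, 102824 bases away, was 8.05-fold higher (6.37 to 10.3) and Ptk2b, 28735 bases away, had a log2 ratio of 0.31.

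**Figure D3:**
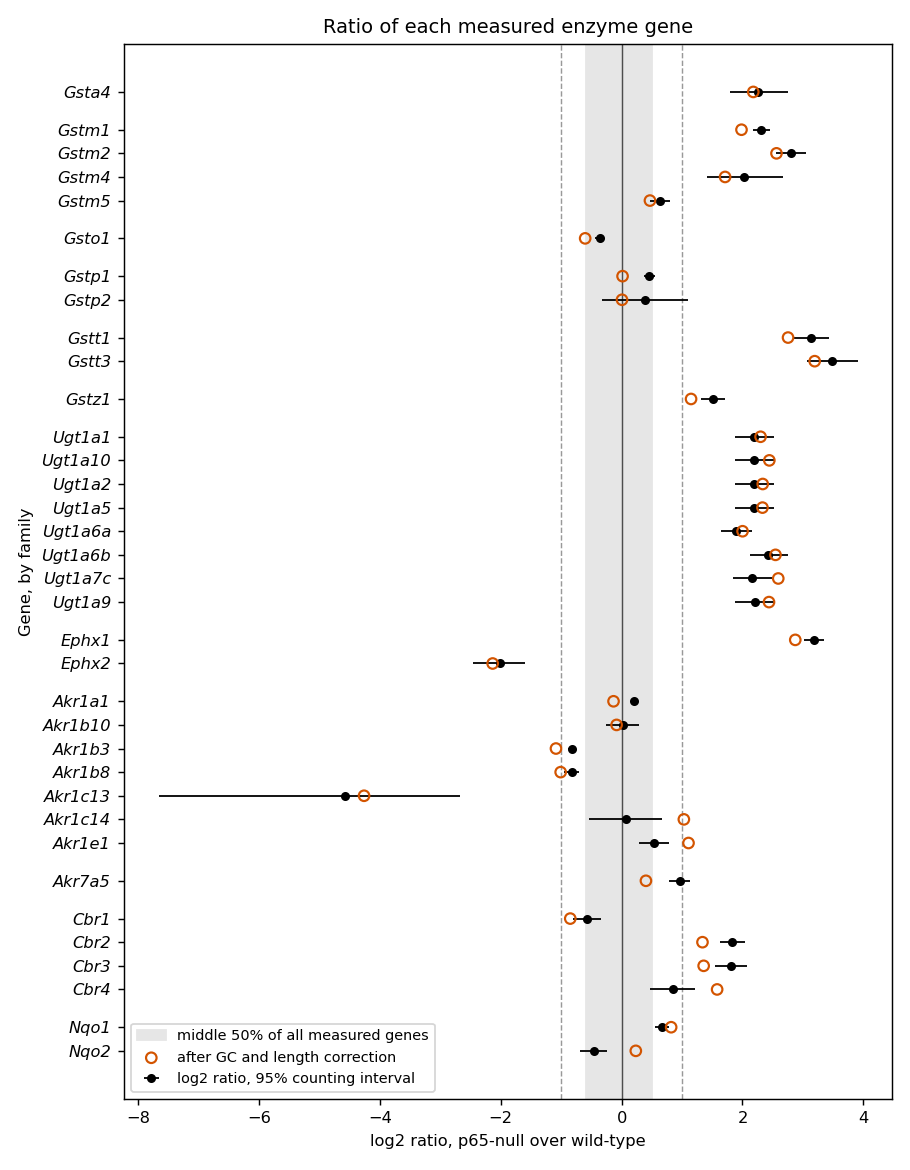
Log2 ratio of p65-null over wild-type for each measured transcript (black points, 95% counting intervals) and the same after the GC and length correction (open circles), with dashed lines at 2-fold and a grey band for the middle 50% of all measured genes, from -0.58 to 0.50. Glutathione transferases of the alpha, mu, theta and zeta classes other than Gstm5, the Ugt1a transcripts, Ephx1, Cbr2 and Cbr3 lie right of the dashed line at 1.

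Among aldo-keto reductases, which reduce aldehydes and ketones with NADPH, 0 of 8 measured genes were higher in p65-null by 2-fold or more, against 12.2% of all measured genes, and 1 was lower, against 13.7%. Corrected for GC and length, 2 of the 8 were higher and 3 lower, against 11.2% and 9.27% of all genes. Akr1a1, the aldehyde reductase that also serves ascorbate synthesis in mice, had the highest level per length of all 35 transcripts in each library, at 319 FPKM in p65-null and 278 FPKM in wild-type. It was at 453 CPM in p65-null and 395 CPM in wild-type, a ratio of 1.15 (1.11 to 1.18), with a log2 ratio of 0.20 that turned to -0.13 after the GC and length correction. Akr7a5, which reduces succinic semialdehyde and aflatoxin aldehyde, was at 40.2 CPM in p65-null and 20.7 CPM in wild-type, a ratio of 1.94 (1.72 to 2.20). That log2 ratio of 0.96 passed 2-fold under upper quartile scaling, at 1.07, and was 0.40 after the correction. Akr1e1, a reductase of sugar-derived ketones, was at 17.3 CPM in p65-null and 12.0 CPM in wild-type, a log2 ratio of 0.54 that was 1.11 after the correction.

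In the Akr1b cluster on chromosome 6, the aldose reductase gene Akr1b3 was at 149 CPM in p65-null and 264 CPM in wild-type, 1.77-fold lower (1.68 to 1.85). Akr1b8, an aldose reductase relative induced by fibroblast growth factor, was at 51.7 CPM in p65-null and 91.5 CPM in wild-type, also 1.77-fold lower (1.63 to 1.93). Their log2 ratios of -0.82 passed 2-fold after the GC and length correction, at -1.09 for Akr1b3 and -1.01 for Akr1b8. Akr1b10, at the end of the cluster, was at 12.3 CPM in p65-null and 12.2 CPM in wild-type, a log2 ratio of 0.02 whose sign turned with total-fragment scaling (-0.04) and after the correction (-0.08). Of the 50-base words of Akr1b3, 59.9% occur in other annotated transcripts such as Gm6644, so that its count may be incomplete or shared. The nearest measured genes on each side, Slc35b4 (126876 bases away) and Bpgm (79407 bases away), had log2 ratios of -0.19 and -0.08.

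The Akr1c genes, which make hydroxysteroid dehydrogenases, were expressed at low levels. Akr1c13 (NM_013778, chromosome 13, 4191168 to 4205604), whose promoter window is printed above, was at 0.132 CPM in p65-null and 3.16 CPM in wild-type. These values rest on 2 fragments in p65-null and 67 in wild-type, so the 23.9-fold lower level has a wide interval (6.37 to 202). Its log2 ratio was -4.58, and -3.76 with a prior count of 2. Akr1c14 was at 2.87 CPM in p65-null and 2.74 CPM in wild-type, a ratio of 1.05 with an interval that includes 1 (0.692 to 1.58). Its log2 ratio of 0.07 was -0.12 when the deeper library was thinned and 1.03 after the GC and length correction. Akr1c12, which shares 28.6% of its 50-base words with Akr1c13, had 1 fragment in p65-null and 4 in wild-type, Akr1c18 had 1 in p65-null and 3.5 in wild-type, and Akr1c19 had 0 in p65-null and 9 in wild-type.

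Carbonyl reductases of the short-chain dehydrogenase family divided. Cbr2, a mitochondrial carbonyl reductase first known from mouse lung, was at 45.1 CPM in p65-null and 12.7 CPM in wild-type, 3.54-fold higher (3.07 to 4.10). Cbr3, a quinone and ketone reductase, was at 27.4 CPM in p65-null and 7.78 CPM in wild-type, 3.52-fold higher (2.93 to 4.24). Cbr1, its close relative on chromosome 16 with broad activity on quinones and prostaglandins, was at 14.4 CPM in p65-null and 21.4 CPM in wild-type, 1.48-fold lower (1.26 to 1.75). The 2 relatives thus changed places per length of transcript, with Cbr3 at 23.4 and Cbr1 at 11.6 FPKM in p65-null, and Cbr3 at 6.65 and Cbr1 at 17.3 FPKM in wild-type. Cbr4, a subunit of the ketoacyl reductase of mitochondrial fatty acid synthesis, was at 9.14 CPM in p65-null and 5.10 CPM in wild-type, a log2 ratio of 0.84 (0.47 to 1.22) that passed 2-fold after the correction, at 1.58.

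The quinone reductase genes stayed within 2-fold. Nqo1, a textbook target of NRF2 and of AhR, was at 83.0 CPM in p65-null and 52.1 CPM in wild-type, a ratio of 1.59 (1.47 to 1.73). Nqo2, which uses dihydronicotinamide riboside in place of NADPH, was at 17.0 CPM in p65-null and 23.4 CPM in wild-type, 1.38-fold lower (1.18 to 1.61). Its log2 ratio of -0.46 turned to 0.24 after the GC and length correction. Nqo2 overlaps 762 exonic bases of Serpinb6a on the other strand, which had a log2 ratio of -0.32. Taking the 14 measured Akr, Cbr and Nqo genes together, 2 passed 2-fold upward in p65-null and 1 downward, against 12.2% and 13.7% of all measured genes. Corrected for GC and length, 5 passed it upward and 3 downward, against 11.2% and 9.27%. Their median log2 ratio was 0.13, and the summed level was 923 CPM in each library. Of the 19 measured Gst and Ugt transcripts, 15 passed 2-fold upward and 0 downward, and their median was 2.20, with 8 of the 15 from the single Ugt1a locus. The difference between these 2 sets was not tested.

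Genes around these enzymes were described with lists chosen with earlier results of these data known, and each count is to be read against the 12.2% of all measured genes that passed 2-fold upward and the 13.7% downward. In the list of other conjugating enzymes 4 of 8 measured genes passed 2-fold upward in p65-null and 1 downward, and the median log2 ratio was 1.09. All 3 microsomal glutathione transferases were among the higher ones. Mgst1 was at 29.3 CPM in p65-null and 5.85 CPM in wild-type, 5.01-fold higher (4.10 to 6.16). Mgst3 was at 19.0 CPM in p65-null and 4.74 CPM in wild-type, and Mgst2 was 3.43-fold higher (2.15 to 5.61). Ptges, a membrane enzyme of the same superfamily that makes prostaglandin E, was at 4.16 CPM in p65-null and 129 CPM in wild-type, 31.1-fold lower (24.3 to 40.6).

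In the list of other carbonyl and aldehyde enzymes 5 of 17 measured genes passed 2-fold upward in p65-null and 0 downward, beside 12.2% and 13.7% of all measured genes, with a median of 0.59. Adh7, an alcohol and retinol dehydrogenase, was at 20.7 CPM in p65-null and 0.519 CPM in wild-type, 39.8-fold higher (21.9 to 80.6). It reached the mean of 1 CPM only through the p65-null library. Dcxr, a dicarbonyl and xylulose reductase, was at 42.3 CPM in p65-null and 2.12 CPM in wild-type, 19.9-fold higher (14.7 to 27.6). It lies 2201 bases from Cbr2 on chromosome 11, so these 2 short-chain reductases that were higher are next to each other. Dhrs7 was 6.39-fold higher (5.22 to 7.89).

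Among genes that supply the cosubstrates, 0 of 17 measured genes passed 2-fold upward in p65-null and 2 downward, a share near the 13.7% of all measured genes, and their median log2 ratio was -0.08. Ugdh, which makes UDP-glucuronic acid for the Ugt enzymes, was at 72.5 CPM in p65-null and 169 CPM in wild-type, 2.33-fold lower (2.18 to 2.50). Gclc, the catalytic subunit of the first step of glutathione synthesis, was at 18.1 CPM in p65-null and 37.6 CPM in wild-type, 2.07-fold lower (1.81 to 2.39). After the GC and length correction both stayed just within 2-fold, at -0.99 for Ugdh and -0.91 for Gclc, while Ugp2 at 1.52 and Idh1 at 1.06 passed it upward. Thus 2 genes of the 17 were then higher and 0 lower, against 11.2% and 9.27% of all genes.

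Among NRF2 and AhR factors with their targets, 4 of 19 measured genes passed 2-fold upward in p65-null and 1 downward, beside 12.2% and 13.7% of all measured genes, with a median of 0.33. Corrected for GC and length, 2 passed it upward and 2 downward, against 11.2% and 9.27% of all genes: Hmox1 and Blvrb no longer passed, and Mafk did at -1.33. Ahrr, the AhR repressor gene and itself an AhR target, was at 32.6 CPM in p65-null and 2.15 CPM in wild-type, 15.2-fold higher (11.2 to 21.1). Ahr was at 48.9 CPM in p65-null and 17.5 CPM in wild-type, 2.79-fold higher (2.46 to 3.17). The AhR targets Cyp1b1 and Tiparp had log2 ratios of -0.54 and 0.04, and Cyp1a1, with 16 fragments in p65-null and 9 in wild-type, was under the minimum. The NRF2 gene Nfe2l2 had a log2 ratio of 0.33 and its inhibitor gene Keap1 of 0.36, and the targets Srxn1 and Txnrd1 of 0.35 and -0.55. Hmox1, the heme oxygenase gene and an NRF2 target, was at 137 CPM in p65-null and 61.3 CPM in wild-type, a log2 ratio of 1.16 that was 0.86 after the correction. Maff, a small partner of NRF2, was 3.55-fold lower (3.06 to 4.14). Cyp1b1, Tiparp, Cyp1a1, Nfe2l2, Keap1, Srxn1, Txnrd1, Blvrb, Mafk, Ugp2 and Idh1 were named after their values were seen.

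Of 6 measured efflux pump genes 1 passed 2-fold upward in p65-null and 2 downward, beside 12.2% and 13.7% of all measured genes, with a median of -0.35 that was 0.05 after the correction. Abcc3, which exports glucuronides, was 4.37-fold higher (2.93 to 6.65). Abcb1b, a P-glycoprotein gene, was 3.34-fold lower (2.96 to 3.78) and Abcc4 2.43-fold lower (2.13 to 2.77). Of 5 measured deconjugation genes 2 passed 2-fold upward and 0 downward, with a median of 0.62: the arylsulfatase gene Arsa at 3.40-fold (2.97 to 3.91) and the gamma-glutamyltransferase family gene Ggt7 at 3.25-fold (2.38 to 4.49).

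**Figure D4:**
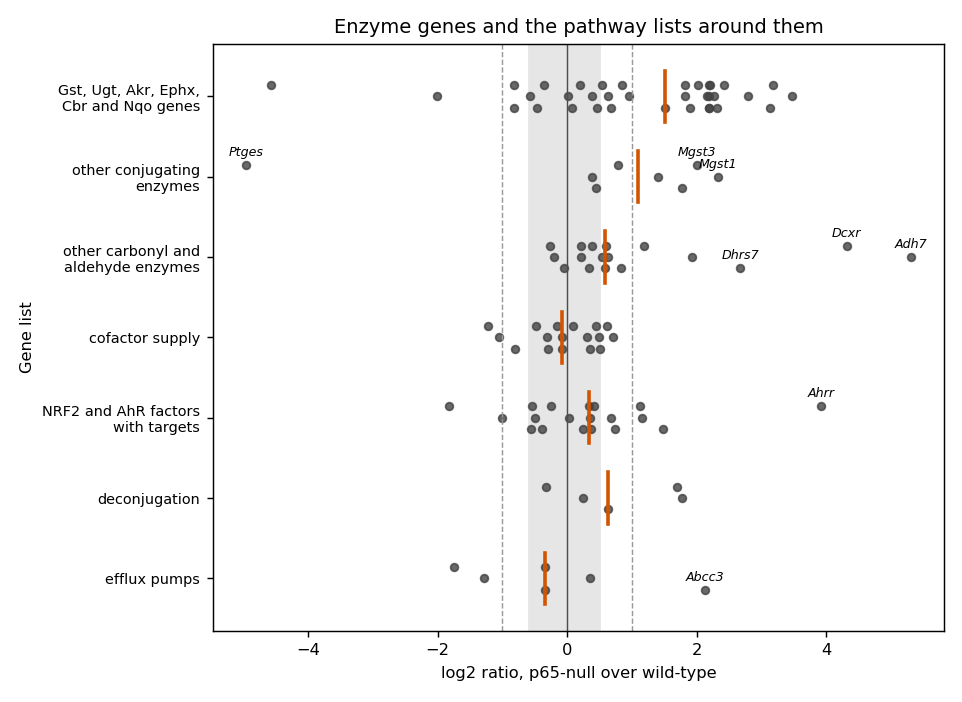
Log2 ratio of p65-null over wild-type for every measured gene of the enzyme families (top row) and of 6 lists around them, 1 point per gene, with an orange bar at each median, dashed lines at 2-fold and a grey band for the middle 50% of all measured genes. The medians run from 1.51 in the top row and 1.09 for other conjugating enzymes to -0.08 for cofactor supply and -0.35 for efflux pumps.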

How the data were processed

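Total RNA of 1 p65-null and 1 wild-type culture was sequenced. Per the submitters' processing notes the tools were edgeR, HOMER, STAR 2.4 and bcl2fastq 2.16 and the build was mm10, with no roles stated. The counting rule, its strand setting and the annotation release were not given in the sources used. The deposited values are a scaled signal although the table is named as raw counts: the p65-null column sums to 18117930 and the wild-type column to 18117934. Each deposited signal was a whole multiple of 1 step (0.587 and 0.436) for 100% of the 14957 p65-null and 15038 wild-type values checked, within 0.0055 units, and 2 steps were taken as 1 fragment. Ratios had been planned for such fragments. The quasi-likelihood count test could not be fitted to the recovered reads, because with 1 library for each genotype there is no spread to estimate, so it gives no number of genes called.

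Of the 16881 transcripts, 16743 were matched to symbols and GRCm38 coordinates through RefSeq and 83 through GENCODE M21. The other 55, holding 3.84% of p65-null and 3.13% of wild-type fragments, stayed out of the gene counts but within the library totals. Fragments were scaled with edgeR 4.0.16 TMM factors (0.981 for p65-null, 1.02 for wild-type). Ratios have p65-null on top, and intervals are exact Clopper-Pearson intervals at 95% (scipy 1.17.1), where a fragment with 1 counted mate enters as 0.5. Fragments are not tagged molecules, so intervals and floors of 3 fragments cover counting error only. FPKM uses the length of the matched GENCODE transcript. The loess correction (span 0.3, statsmodels 0.14.6) for GC content and then length covered 99.6% of measured genes. The ratio and correction steps were tested on simulated data.

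Every measured member is named, and in each list of genes around the enzymes up to 3 genes higher and 3 lower by the interval end nearest 0. Cell type markers were not all named by that rule, since Dcn, for example, was within 2-fold. Members and lists were chosen with earlier results of these data known. The alternatives were DESeq2 1.42.0 size factors, total fragments, upper quartile factors, a minimum of 5 CPM or none, a prior count of 2, thinning of the deeper library, the GC and length correction, the whole interval beyond 2-fold, and Ugt1a as 1 locus.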

Additional observations from a re-analysis of the deposited data

How the results depend on the processing

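The count of 18 members at least 2-fold higher in p65-null was 18 or 19 of 35 under the 3 other scalings, the prior count and thinning. The share of all genes was 11.3% to 14.2% under these settings. It was 19 of 43 with no minimum, against 15.5% of all genes, and 17 of 31 with a minimum of 5 CPM, against 9.10%. After the GC and length correction it was 21 of 35, against 11.2%. With the Ugt1a transcripts as 1 locus it was 11 of 28, against 12.1%, since 8 entries became 1. The count of 2 members at least 2-fold lower was 1 of 31 with a minimum of 5 CPM, which leaves out Akr1c13, against 12.0% of all genes. It was 6 of 43 with no expression minimum, which adds members of few fragments, a share near the 15.0% of all genes. After the GC and length correction, where Akr1b3 and Akr1b8 joined, it was 4 of 35, against 9.27%. The median log2 ratio of 1.51 was 0.65 with Ugt1a as 1 locus and 0.84 with no expression minimum, and ran from 1.34 (GC and length correction) to 1.81 (5 CPM) under the others. Upper quartile scaling moved the median of all genes from -0.03 to 0.09. No member at least 2-fold apart changed sign under any alternative run. Of 210 recomputed log2 ratios of single members, 185 stayed within the counting interval. Most of the 25 outside it came from the GC and length correction. The 3 other scalings shift every ratio by the same amount, so the total is no measure of how stable single ratios are. No paired analysis was possible because each genotype has 1 library; for the same reason no replicate could be left out. Members with under 10 fragments in either library, such as Akr1c13, are limited by depth.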
